A study of Mus musculus with 2 samples.

Results

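The replication-dependent histone genes are the genes whose names begin with Hist1h, Hist2h, Hist3h or Hist4h, and 67 of the 21938 protein-coding genes of the GENCODE annotation on chromosomes 1 to 19, X and Y carry such a name. The rule uses the names alone. ATAC-seq marks open chromatin by the cuts that the enzyme Tn5 makes in it, and was performed on EHMT2-dTAG-mcherry mouse embryonic stem cells (mESCs) of a BL6/129 hybrid strain. In these cells both copies of the endogenous Ehmt2 gene, which encodes an H3K9 methyltransferase, carry a degron tag and an mCherry reporter. The cells were grown with serum and LIF on mouse embryonic fibroblast feeders and received the vehicle DMSO for 24 h without the degrader, so EHMT2 was present. There was 1 group with 2 independent clones and 50000 cells per sample, and the authors called 1 list of 116782 peaks on both clones merged. The list therefore carries no spread between clones, no test was run, and every comparison is a description. No treated group was analysed here.

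Histones are made in bulk during S phase, when the replicated DNA has to be packed into nucleosomes. The core histones H2A, H2B, H3 and H4 form the nucleosome particle, and the linker histone H1 binds where DNA enters and leaves it. The genes that serve this demand lie in clusters, have no introns in their coding sequence, and give mRNAs that end in a stem-loop bound by the protein SLBP rather than in a poly(A) tail. Dedicated factors act at their promoters, among them NPAT, the coactivator that cyclin E and CDK2 phosphorylate, NF-Y, which binds CCAAT boxes, OCT1 (Pou2f1), which binds the octamer of H2B promoters, and HINFP, which binds an element of H4 promoters.

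A gene was given a peak that reached within 500 bp of its start. Of the 67 histone genes, 55 had such a peak, against 64.3% of all protein-coding gene starts. All 12 genes without a peak are accounted for by the 10 Hist2h genes on chromosome 3 and by the linker histone genes Hist1h1d and Hist1h1t. With the 10 Hist2h genes left out, 55 of 57 genes had a peak, which is 96.5%. These 10 were left out after it was seen that none had a peak, so this share is not comparable with the 64.3%. A peak with a −log10 q-value of at least 10 lay over 43 histone genes, against 47.1% of all gene starts. The 55 genes shared 41 distinct peaks, since 14 peaks covered 2 histone genes each and 27 covered 1, and no peak covered 3 or more.

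The sequence at the starts shows how the classes differ. Each promoter, taken as the 250 bases before to 50 bases after the gene start in the GRCm38 (mm10) genome, was searched on both strands for the TATA box TATAAA, the CCAAT box, the octamer ATTTGCAT, the H1 box AAACACA and the H4 element GGTCCG. The letters CCAAT were present in 18 of 18 H2A and 18 of 18 H2B promoters, each time at least 2 copies, in 11 of 12 H3 and 5 of 6 H1 promoters and in 4 of 13 H4 promoters, against 39.0% of all 21938 promoters. The octamer was found in 7 H2A and 8 H2B promoters and in none of the H1, H3 or H4 promoters, against 1.57% of all promoters. Where an H2A and an H2B gene lie head to head their windows overlap, and 10 of these 15 promoters belong to 5 such pairs in which both partners held the same octamer, so the 15 promoters held 10 different octamer sites. The CCAAT sites of such partners were likewise shared in part. GGTCCG was present in 12 of 13 H4 promoters, 2 H3 promoters, 1 H2B promoter and no H1 or H2A promoter, against 9.60% of all. AAACACA was found in 4 of 6 H1 promoters, 3 H2B, 1 H2A and 1 H3 promoter and no H4 promoter, against 6.4% of all. TATAAA was present in 37 of the 67 promoters, against 12.6% of all. CCAAT was thus common in every class but H4, the octamer was found only in H2A and H2B promoters, and GGTCCG was mostly found in H4 promoters. With the window placed at the start codon instead, CCAAT was present in 12 of 12 H3 and 6 of 6 H1 promoters and AAACACA in 5 of 6 H1 promoters. A match is a description of letters and not a bound site.

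The following stretches were chosen because they belong to the shared H2A–H2B promoters of highest and of lowest fold enrichment. Capitals mark these 5 motifs on either strand, and each stretch runs from the base after the minus-strand start to the base before the plus-strand start.
Hist1h2ac to Hist1h2bc, chr13:23683949-23684198, plus strand: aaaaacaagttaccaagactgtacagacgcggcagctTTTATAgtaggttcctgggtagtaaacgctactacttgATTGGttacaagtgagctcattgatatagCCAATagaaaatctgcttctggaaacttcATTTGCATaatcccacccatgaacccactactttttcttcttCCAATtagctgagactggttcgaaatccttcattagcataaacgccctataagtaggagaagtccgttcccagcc
Hist1h2bf to Hist1h2ad, chr13:23574197-23574380, plus strand: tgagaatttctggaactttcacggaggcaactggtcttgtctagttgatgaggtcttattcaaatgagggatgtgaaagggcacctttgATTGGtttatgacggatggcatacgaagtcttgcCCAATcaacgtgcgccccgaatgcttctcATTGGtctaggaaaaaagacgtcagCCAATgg

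The next stretches are the 250 bases before the start of single genes, 5′ to 3′ in the direction of transcription, with the same capitals. Hist1h1c and Hist1h1t are shown because the first had the highest fold of the H1 genes and the second had no peak. Hist1h3e and Hist1h3i are the H3 genes of highest fold among those not in a pair and of lowest fold, and Hist1h4c and Hist1h4f are the H4 genes of highest and lowest fold. In Hist1h3i the reverse complement of GGTCCG overlaps a CCAAT.
Hist1h1c, chr13:23738558-23738807, plus strand: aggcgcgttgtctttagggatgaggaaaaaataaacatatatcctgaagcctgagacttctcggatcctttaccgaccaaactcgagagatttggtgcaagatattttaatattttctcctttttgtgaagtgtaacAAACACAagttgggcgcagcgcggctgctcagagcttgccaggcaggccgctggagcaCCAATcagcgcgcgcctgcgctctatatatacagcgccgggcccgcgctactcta
Hist1h1t, chr13:23695564-23695813, plus strand: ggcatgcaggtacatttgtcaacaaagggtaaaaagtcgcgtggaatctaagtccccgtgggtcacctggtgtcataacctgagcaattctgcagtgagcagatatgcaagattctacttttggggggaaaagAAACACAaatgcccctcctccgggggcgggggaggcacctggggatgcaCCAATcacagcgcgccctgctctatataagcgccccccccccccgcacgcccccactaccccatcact
Hist1h3e, chr13:23562370-23562619, minus strand: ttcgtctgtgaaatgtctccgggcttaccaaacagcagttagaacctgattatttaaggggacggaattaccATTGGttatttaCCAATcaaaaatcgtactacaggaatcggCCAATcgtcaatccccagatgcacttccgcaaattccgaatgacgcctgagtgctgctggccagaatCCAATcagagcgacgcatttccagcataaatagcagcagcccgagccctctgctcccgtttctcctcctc
Hist1h3i, chr13:21783371-21783620, minus strand: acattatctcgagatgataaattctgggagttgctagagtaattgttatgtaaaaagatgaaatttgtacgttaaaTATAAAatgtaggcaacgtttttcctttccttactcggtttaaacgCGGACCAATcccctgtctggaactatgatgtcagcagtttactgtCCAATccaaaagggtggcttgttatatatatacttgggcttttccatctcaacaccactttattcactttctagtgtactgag
Hist1h4c, chr13:23698455-23698704, minus strand: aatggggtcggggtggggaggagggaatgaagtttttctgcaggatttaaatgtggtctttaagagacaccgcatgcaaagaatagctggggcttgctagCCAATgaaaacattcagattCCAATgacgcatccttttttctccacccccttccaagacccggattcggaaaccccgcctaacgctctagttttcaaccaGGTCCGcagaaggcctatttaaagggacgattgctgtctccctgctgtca
Hist1h4f, chr13:23551649-23551898, minus strand: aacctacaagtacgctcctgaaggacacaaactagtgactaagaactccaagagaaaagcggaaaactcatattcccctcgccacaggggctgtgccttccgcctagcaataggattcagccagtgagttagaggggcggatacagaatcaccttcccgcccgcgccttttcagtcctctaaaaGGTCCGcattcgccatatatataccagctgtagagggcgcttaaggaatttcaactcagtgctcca

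Both shared promoters hold CCAAT on either strand, and of these 2 only that of Hist1h2ac and Hist1h2bc holds the octamer. Over the 11 H2A–H2B pairs with a peak the folds overlapped, from 5.26 to 11.40 in the 4 pairs with the octamer and from 4.57 to 9.03 in the 7 without it. Hist1h1t, the testis-specific linker histone gene without a peak, holds the same AAACACA and CCAAT as Hist1h1c. Hist1h4c and Hist1h4f both hold GGTCCG close to the start. The histone promoters were less rich in G and C than promoters in general, with a median of 45.3% against 55%, while the ratio of observed to expected CpG was 0.75 (quartiles 0.58 and 0.90) against 0.52 (0.21 and 0.80). For the 14106 promoters with a peak the medians were 60% and 0.73.

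All transcripts had 1 exon at 62 of the 67 genes, and the 3′ ends were alike in all classes. A stem-loop of 6 paired bases around a loop of 4 began at most 58 bases after the stop codon in 66 of 67 genes, at a median distance of 30.5 bases. The gene without a match to the search was Hist2h2be. Only 9 different sequences occurred, and 41 genes from the H1, H2A, H2B and H3 classes had the same one, shown for Hist1h2ac, while the H4 genes used others, shown for Hist1h4c and Hist1h4j, and a further loop is shown for Hist1h3e. The stem is in capitals.
Hist1h2ac, chr13:23683477-23683492, minus strand: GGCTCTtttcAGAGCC
Hist1h4c, chr13:23698089-23698104, minus strand: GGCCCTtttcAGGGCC
Hist1h4j, chr13:21735437-21735452, plus strand: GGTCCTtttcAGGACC
Hist1h3e, chr13:23561903-23561918, minus strand: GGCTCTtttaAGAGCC
The sequence of Hist1h4c was found in 8 genes and that of Hist1h4j in 2, all of them H4 genes. That of Hist1h3e was found in 9 genes of the other classes, Hist1h1t among them.

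Fold enrichment, the ratio of the fragments at the peak summit to the local background, each increased by 1, was lower at histone genes than at most starts with a peak. Over the 55 genes the median was 6.10, with quartiles of 4.99 and 7.64 and a range from 3.31 to 11.40. Over all 14106 starts with a peak the median was 8.43, with quartiles of 5.86 and 11.44. At 46 of the 55 genes the fold was below that median, and at no gene was it above the upper quartile. The −log10 q-value, which grows with the number of fragments, was near the general level, with a median of 19.4 against 19.9.

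The low ratio came with a high background rather than with few fragments. The samples include no control library, so this local background comes from the ATAC-seq fragments around each summit. It can include fragments of the peak itself and of neighbouring peaks, and their part in it was not tested. The number of fragments over each summit, calculated back from the fold and the p-value, had a median of 42 (quartiles 30.5 and 51) at histone genes and 32 (quartiles 18 and 53) at all starts with a peak. The local background in fragments had a median of 6.12 at histone genes, with quartiles of 4.70 and 7.85, and of 2.90 at all starts with a peak, with quartiles of 1.94 and 4.26. It was above the general median at 48 of the 55 genes, and the fragment number was above it at 39. The 526 other protein-coding starts with a peak on chromosome 13 had medians of 9.43 for the fold, 37 for the fragments and 2.88 for the background. The difference therefore did not extend to the other starts on that chromosome. With a single merged list, more accessible cells and more fragments per accessible cell cannot be told apart.

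**Figure D1:**
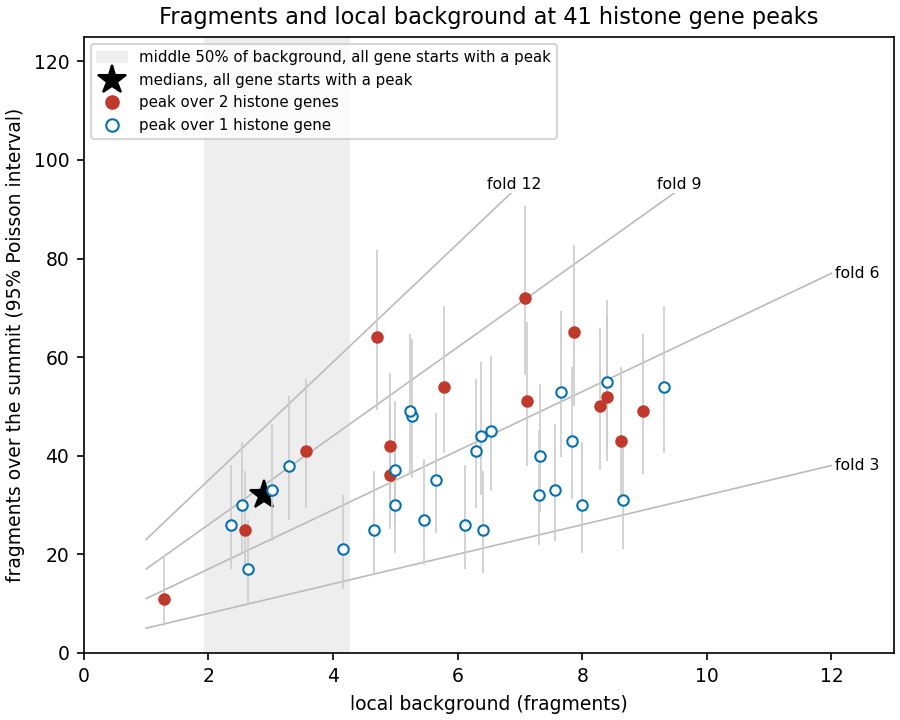
Fragments over the summit (vertical axis, with exact 95% Poisson intervals that cover counting error only) against the local background in fragments (horizontal axis) for the 41 peaks over histone genes, with grey lines of equal fold. Most peaks lie to the right of the band that holds the middle 50% of backgrounds at all gene starts with a peak, whose medians of 2.90 and 32 are marked by the star.

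The classes overlapped widely in fold. H2B genes had the highest median, 6.83 over 16 of 18 genes with a peak, followed by H2A with 6.33 over 14 of 18, H1 with 5.76 over 4 of 6, H4 with 5.25 over 12 of 13 and H3 with 5.01 over 9 of 12. The H4 genes were the most uniform, with quartiles of 4.97 and 5.99, while H3 genes ran from 3.31 to 9.21. The H3 median was the value of Hist1h3a, whose peak had its summit 1011 bp downstream of the gene start. With the window placed at the start codon, a choice made after seeing the data, the medians were 6.51 for H1 over 5 of 6 genes, 6.37 for H2B and 6.33 for H2A. Those of H4 and H3 stayed at 5.25 and 5.01. No order of the classes can be read from these medians, since it changed with the window, H2A and H2B genes share peaks and the ranges overlap.

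**Figure D2:**
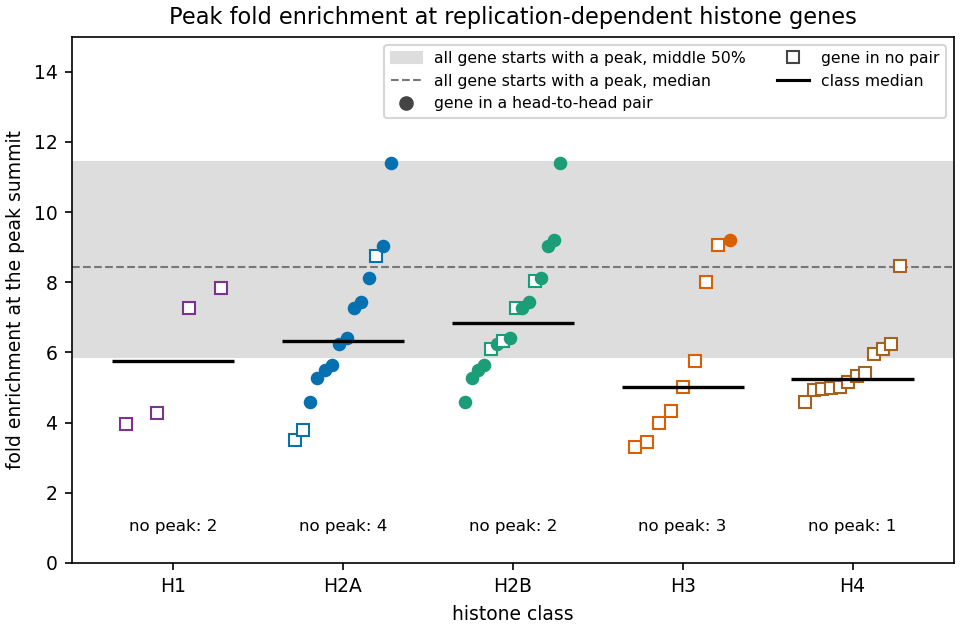
Fold enrichment (vertical axis, linear) of the peak at each histone gene with a peak, by class, with filled circles for genes in head-to-head pairs, open squares for the others and a bar at the class median. The dashed line and grey band give the median of 8.43 and the quartiles of 5.86 and 11.44 over all gene starts with a peak, and every class median lies below the dashed line.

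Among the linker histones, Hist1h1c had a peak of 7.83-fold with 48 fragments (95% Poisson interval 35.4 to 63.6) and a width of 1322 bp. Hist1h1e had a 7.26-fold peak with 25 fragments (16.2 to 36.9), Hist1h1b a 4.26-fold peak with 21 fragments (13 to 32.1), and Hist1h1a a 3.97-fold peak with 33 fragments (22.7 to 46.3). The intervals of these 4 genes overlap in part, and the order by fold is not the order by fragments, since Hist1h1a had a background of 7.56 fragments and Hist1h1e one of 2.58. The summit of the Hist1h1e peak lay 1182 bp downstream of the start codon, beyond the end of the 660 bp coding sequence. This peak also covered the start of Hist1h2be. Its fold, fragments and background are therefore values of that summit and not of the Hist1h1e promoter. Hist1h1a had the narrowest peak of all histone genes, with 261 bp. Hist1h1d had no peak at the start of its gene record, which lies 1828 bp before the start codon. At the start codon itself, a 6.51-fold peak of 1419 bp with 36 fragments (25.2 to 49.8) was present, with its summit 66 bp into the coding sequence. Hist1h1t had no peak at the start codon either, and the nearest peak was 1756 bp from its start. Hist1h1t was thus the only Hist1h gene without a peak at its start or start codon.

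For H2A, the genes of highest fold were Hist1h2ac with 11.40 and Hist1h2an with 9.03, and those of lowest fold were Hist1h2af with 3.51 and Hist1h2ab with 3.79. Neither of the last pair has an H2B gene on the other side of the promoter, but nor has Hist3h2a on chromosome 11, whose fold was 8.76. Within 100 bp of the summit, 100% of the 100-base stretches at Hist1h2an and 87.3% at Hist1h2af have another exact copy in the genome, so the fragments there cannot be assigned to these genes with certainty, whereas the summits at Hist1h2ac and Hist1h2ab held no such stretch. The peaks of Hist1h2af and Hist1h2ab were 636 and 503 bp wide and held 25 and 26 fragments. For H2B, the highest fold was that of Hist1h2bc with 11.40 and the lowest that of Hist1h2bf with 4.57, both in head-to-head pairs.

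For H3, the highest folds were those of Hist1h3f with 9.21 and Hist1h3e with 9.07, and the lowest were those of Hist1h3i with 3.31 and Hist1h3d with 3.44. The last pair held 31 (21.1 to 44.0) and 30 (20.2 to 42.8) fragments, against 41 (29.4 to 55.6) at Hist1h3f and 38 (26.9 to 52.2) at Hist1h3e, and these intervals overlap. The backgrounds differed more, with 8.66 and 8.0 fragments at Hist1h3i and Hist1h3d and 3.56 and 3.30 at Hist1h3f and Hist1h3e. All 100-base stretches within 100 bp of the summits at Hist1h3i and Hist1h3d occur elsewhere in the genome too, so their fragments cannot be assigned to these genes with certainty. For H4, Hist1h4c was highest with 8.46 and Hist1h4f lowest with 4.59. Hist1h4j stood apart in position, with its summit at −696 bp, upstream of the start, and 17 fragments (9.90 to 27.2).

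The Hist1 locus on chromosome 13 held 54 of the 67 genes, of which 52 had a peak at the gene start. It fell into 4 runs of histone genes, here numbered I to IV and separated by over 150 kb. In run I, chr13:21715763-21837530, all 18 genes had a peak with a median fold of 6.10. In run II, chr13:22035164-22043676, all 5 genes had one with a median of 6.4, and in run III, chr13:23531050-23764406, 27 of 29 genes had one with a median of 5.5. Run IV, chr13:23933773-23934851, holds Hist1h2ba and Hist1h2aa, which are known as testis-specific H2B and H2A genes. These 2 shared a 5.26-fold peak of 1428 bp with 11 fragments (5.49 to 19.7), the fewest of any histone gene peak. The background there was 1.28 fragments, the lowest of any histone gene peak. Of the 100-base stretches within 100 bp of this summit, 78.4% have another exact copy in the genome.

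**Figure D3:**
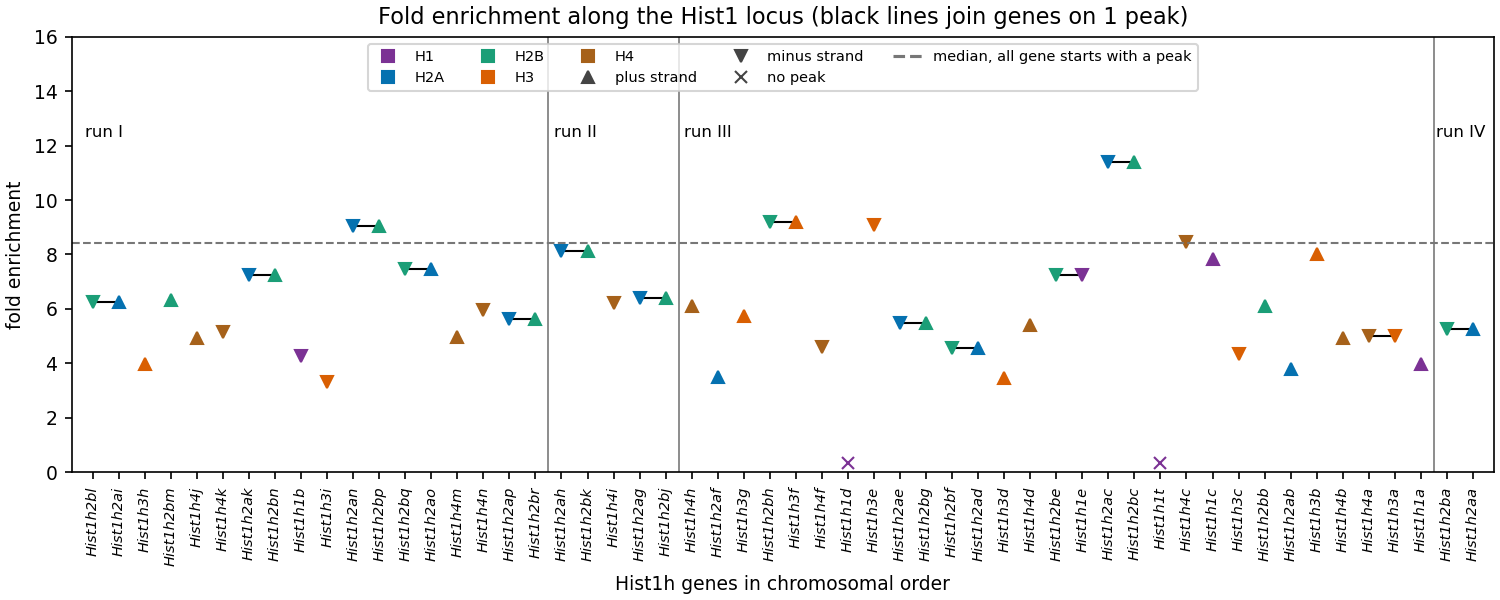
Fold enrichment (vertical axis) at the 54 Hist1h genes in chromosomal order (horizontal axis, not to scale), coloured by class, with triangles that point up for the plus strand and down for the minus strand. Black lines join neighbours on the same peak, crosses mark Hist1h1d and Hist1h1t without a peak, and the folds of neighbours differ within runs I and III, from 3.31 to 9.03 in run I and from 3.44 to 11.40 in run III.

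Most peaks inside the runs lay over histone genes. Within run I, 13 of 17 peaks lay over histone gene starts, and within run III 21 of 28. Peaks covered 14% of the bases of run I, 35.9% of run II and 10.7% of run III. The 4 other peaks of run I had a median fold of 5.08 and the 7 others of run III one of 3.72, among them the peaks over the coding sequences of Hist1h1d and Hist1h2be and the peak at Hfe, which encodes a regulator of iron uptake. Of the 49 other protein-coding genes between the first and the last Hist1h start, many of them vomeronasal receptor genes of the Vmn1r family, 7 had a peak, a lower share than the 64.3% of all gene starts. These 7 were the zinc-finger genes Zfp322a with 11.8 and Zfp184 with 11.4, and Abt1 with 5.41, Pom121l2 with 4.4, Vmn1r200 with 4.16, Btn2a2 with 4.10 and Hfe with 3.70. Hfe was the only one of the 49 inside a run.

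The genes outside the Hist1 locus differed sharply from each other. Hist3h2ba and Hist3h2a on chromosome 11 had separate peaks of 8.04-fold, with 26 fragments (17.0 to 38.1), and 8.76-fold, with 30 fragments (20.2 to 42.8). Their backgrounds of 2.36 and 2.54 fragments were below the general median. Hist4h4, the only gene of the set on chromosome 6, had a 5.33-fold peak with 54 fragments (40.6 to 70.5). Its background of 9.32 fragments was the highest of the 41 peaks, so a high background was not confined to the Hist1 locus. H2afj, a histone gene outside the set, lies close to Hist4h4 and had a 9.18-fold peak with 102 fragments. Whether that peak adds to the background of Hist4h4 was not tested. Hist3h2a shared its peak with Trim17, the only other protein-coding gene whose start was reached by any of the 41 peaks.

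No peak was found at any of the 10 Hist2h genes, chr3:96219865-96270132. These are Hist2h2ab, Hist2h2ac, Hist2h2be, Hist2h3c2, Hist2h2aa2, Hist2h2aa1, Hist2h3c1, Hist2h4, Hist2h3b and Hist2h2bb, and the nearest peaks lay 34742 to 65367 bp from their starts. The cluster sits in a stretch of 131737 bp without a single peak, chr3:96172757-96304493, which also holds the starts of Sv2a, a synaptic vesicle protein gene, Bola1 and Fcgr1. Of 109858 gaps of at least 1000 bp between peaks, 1412 were as long or longer, but only 12 held as many as its 13 protein-coding starts. The Hist2h promoters held the same letters as the others, with CCAAT in 10 of 10, TATAAA in 5 and the octamer in 3. Their ratio of observed to expected CpG had a median of 0.70. Repeated sequence covered part of the gap: 10.6% of its 100-base stretches have another exact copy in the genome. The windows at Hist2h4 and Hist2h2bb held no such stretch, and those at Hist2h2ab, Hist2h2ac and Hist2h2be held up to 3.22%. The share was 33.3% at Hist2h3b, 56.7% at Hist2h2aa1, 63.1% at Hist2h2aa2, and 88.9% at Hist2h3c2 and Hist2h3c1. The authors removed reads in the ENCODE High Signal Regions before calling peaks, and those intervals were not analysed here, so removed reads and closed chromatin cannot be told apart for this gap.

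Head-to-head arrangement, with divergent starts at most 1000 bp apart, was found for 13 pairs of histone genes, 26 genes in all. In 12 pairs an H2A gene faced an H2B gene, and in the other Hist1h2bh faced Hist1h3f over 660 bp. The distance between the starts had a median of 268 bp. In 12 of the 13 pairs a single peak spanned both starts, and the exception was Hist2h2ac with Hist2h2be, which had no peak. The histone genes were therefore often on a peak with another gene: 29 of the 67 had a peak that also reached the window of another protein-coding gene, against 11.7% of all gene starts, and 28 of them shared it with a histone gene. Among 720 other head-to-head pairs of protein-coding genes, 91.0% had 1 peak that spanned both starts, so a shared peak is the rule for divergent genes in general.

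The 12 shared peaks had a median fold of 6.83, a median width of 1193 bp and a median of 50.5 fragments. Counted by gene, the 31 histone genes with a peak in no pair had medians of 5.33, 909 bp and 33 fragments. Among these, the peaks of Hist1h2be with Hist1h1e and of Hist1h4a with Hist1h3a count once for each gene. At the other head-to-head pairs the medians were 10.7, 1074 bp and 48 fragments. The fragment numbers at histone pairs and other pairs were thus close, and the folds were not.

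The pair with the highest fold was Hist1h2ac with Hist1h2bc, at 11.40 with 64 fragments (49.3 to 81.7) over a background of 4.70. The pair with the lowest was Hist1h2bf with Hist1h2ad, at 4.57 with 43 fragments (31.1 to 57.9) over a background of 8.62. Both are in run III and their promoter sequences are those printed above. The intervals of the fragment numbers overlap, and the backgrounds differ in the opposite direction to the folds. The most fragments of all histone gene peaks, 72 (56.3 to 90.7), were found at Hist1h2an with Hist1h2bp, where the fold was 9.03. Since every 100-base stretch around that summit is repeated, with up to 11 other copies, these fragments cannot be assigned to this pair with certainty.

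The summit lay between the starts in 5 of the 12 pairs, within the minus-strand gene in 6 and within the plus-strand gene in 1. At the other divergent pairs with a shared peak the summit lay between the starts in 36.4%. The starts of the other pairs were closer, with a median distance of 124.5 bp against 268 bp, so these shares are not directly comparable. In the pairs Hist1h2ak with Hist1h2bn, Hist1h2an with Hist1h2bp, Hist1h2ag with Hist1h2bj and Hist1h2ae with Hist1h2bg, the summit lay 141 to 253 bp into the H2A gene. In Hist1h2bl with Hist1h2ai it lay 48 bp into the H2B gene, and in Hist1h2ba with Hist1h2aa 296 bp. Of these 6 summits only that of Hist1h2ak with Hist1h2bn lay in sequence without another exact copy. The repeated share of the 100-base stretches was 100% at Hist1h2an with Hist1h2bp and at Hist1h2ag with Hist1h2bj, 78.4% at Hist1h2ba with Hist1h2aa, 34.3% at Hist1h2bl with Hist1h2ai and 31.4% at Hist1h2ae with Hist1h2bg. Reads with several equal matches were placed at random, so the positions of these 5 summits are uncertain.

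**Figure D4:**
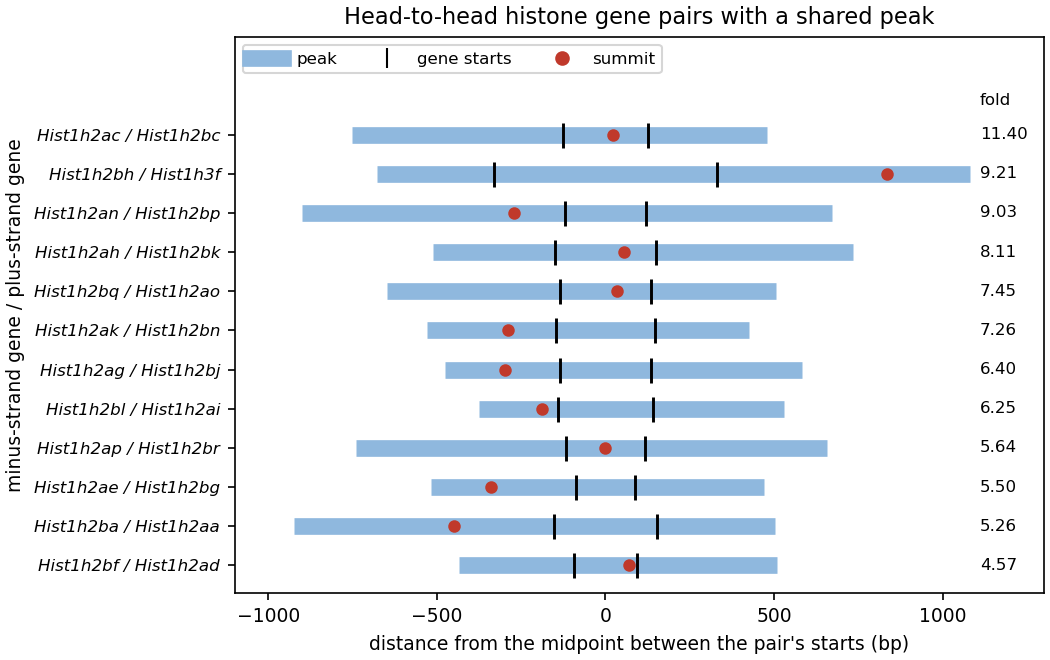
Extent of the shared peak (bar), the starts of both genes (ticks) and the summit (red point) relative to the midpoint between the starts, in bp, for the 12 head-to-head pairs of histone genes with a peak, ordered by fold, which is printed at the right. Every bar spans both ticks, and 5 of the 12 points lie between them.

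The peaks were wide compared with the genes they cover. The width had a median of 1060 bp (quartiles 839 and 1392), close to the 1045 bp of all starts with a peak, but the genes are short, and 48 of the 67 were at most 1000 bp long. The median share of the gene record inside the peak was 75.1% over histone genes of every length with a peak. It was 2.15% for all protein-coding genes with a peak. At least 90% of the gene record was inside at 20 histone genes. Other genes of at most 1000 bp had a median of 70.7%, but only 134 of those 670 genes had a peak, against 41 of the 48 histone genes of this length. A peak over much of the gene record is thus also found at other short genes that have a peak. The share of the coding sequence inside the peak was not measured.

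The widest peaks joined neighbours. The widest, of 1934 bp, covered the starts of Hist1h1e and Hist1h2be. Its summit lay 1243 bp downstream of the start of Hist1h1e, a histone H1 gene that points the same way. The gene record of Hist1h2be starts 35168 bp before its start codon, and at the codon a different peak of 4.70-fold with 30 fragments (20.2 to 42.8) was found. The next widest, of 1807 bp, joined Hist1h4a and Hist1h3a at 5.01-fold with 49 fragments (36.3 to 64.8). Its summit lay 1011 bp downstream of the start of Hist1h3a, beyond the end of that gene. These values are therefore not values of the Hist1h3a promoter. The others were the 1761 bp of Hist1h2bh with Hist1h3f, the 1573 bp of Hist1h2an with Hist1h2bp, and the 1555 bp of Hist1h1b alone. The summit of the 1761 bp peak lay at −1164 bp from the Hist1h2bh start, within Hist1h3f. Among these 5 peaks, 4 thus covered the starts of 2 genes.

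The classes also differed in the median position of the summit. Measured from the start codon in the direction of transcription, the median summit was 46 bp downstream for H3, 70.5 bp downstream for H4 and 15 bp downstream for H1, and −67.5 bp for H2A and −157.5 bp for H2B, the minus sign meaning upstream. With the peak at the codon used in place of that at the gene start, the H1 and H2B medians were 47 and −146.5 bp. Head-to-head H2A and H2B genes share a summit measured from opposite sides, so the values of these classes are not independent. Every 100-base stretch around the summits of Hist1h3i, Hist1h3d and Hist1h4m is repeated, as are 74.5% at Hist1h4n, so these positions are uncertain. For H4, 10 of 12 summits lay downstream of the gene start and for H2B 3 of 16. The share over all classes was 31 of 55, or 56.4%, near the 55.8% of all starts with a peak. The peaks reached 574 bp upstream and 447 bp downstream of the start in the median, against 415 and 587 bp at all starts with a peak. The gene records themselves begin in part at the codon, as 11 of the 67 starts are the first base of the start codon.

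**Figure D5:**
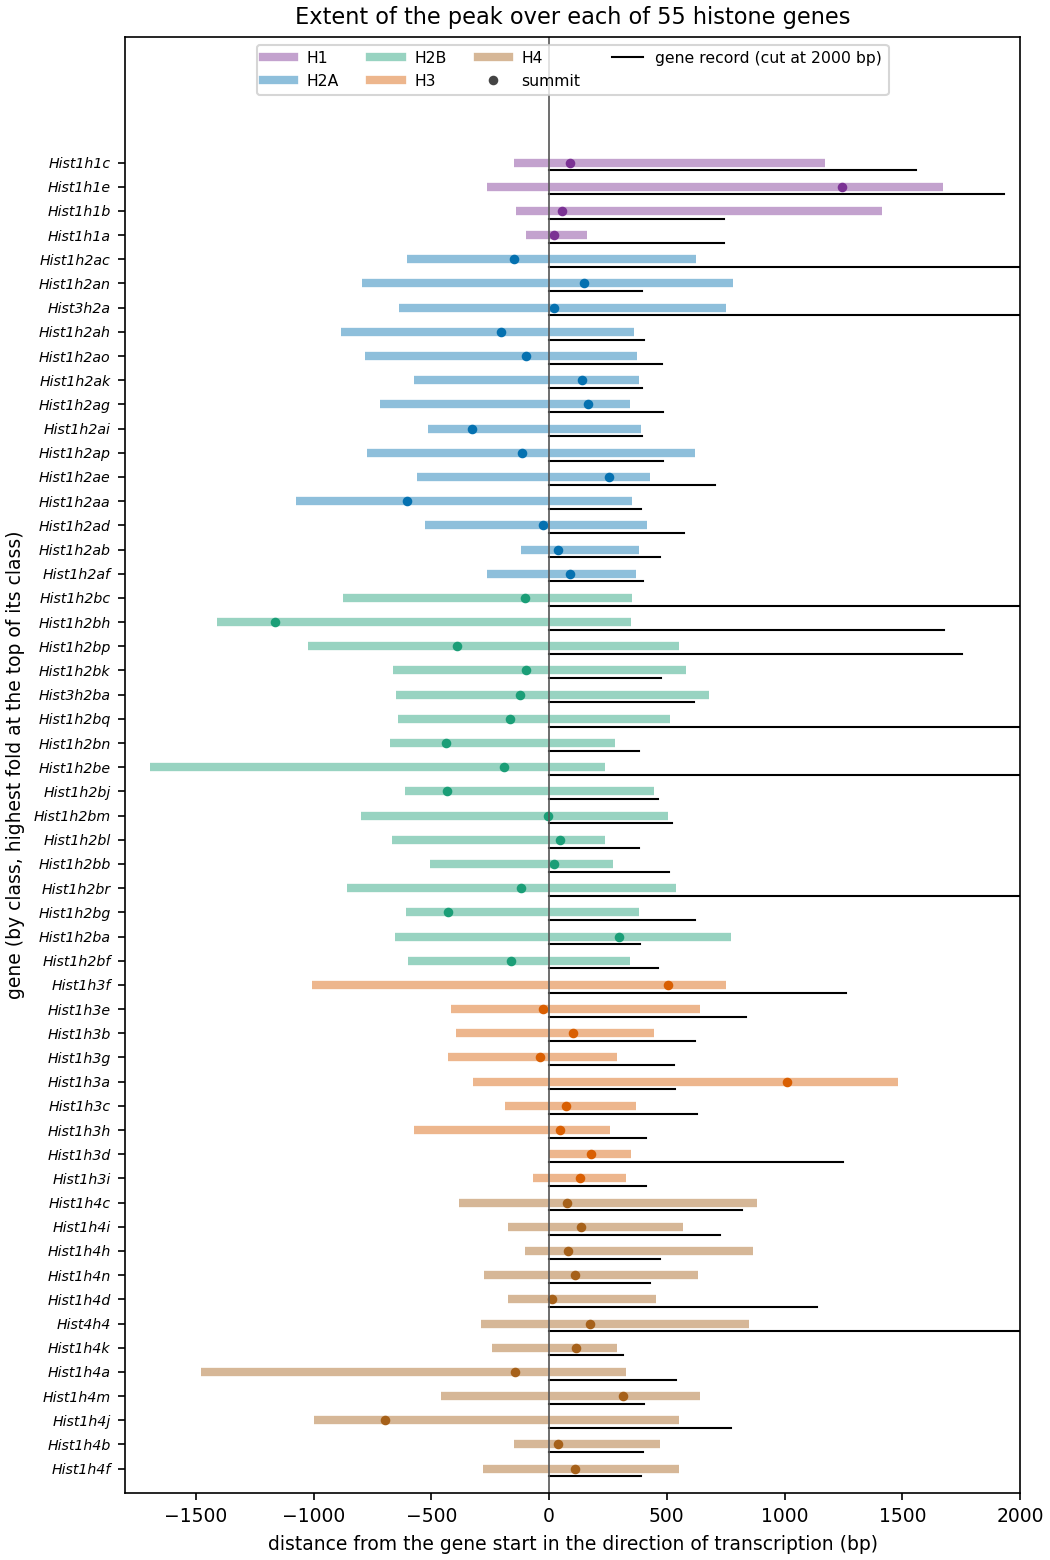
Extent of the peak (bar) and position of its summit (point) relative to the gene start, in bp in the direction of transcription, for the 55 histone genes with a peak, with the gene record as a black line. Bars of H2A and H2B genes mostly extend far upstream, over the partner's start, whereas those of H4 genes mostly extend farther downstream than upstream.

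Copies of the genes resemble each other so closely that reads cannot always be placed. Of the 67 coding sequences, 57 held a stretch of 100 bases, the read length, that occurs elsewhere on chromosomes 1 to 19, X or Y, and in 39 more than 50% of the stretches did. The authors wrote reads with several equal matches at 1 location chosen at random. The stretches were compared singly, and whether the other read of a pair placed a fragment was not analysed. In run I, the unit of Hist1h2bq, Hist1h2ao and Hist1h4m, chr13:21809697-21812246, is repeated in inverted order as Hist1h4n, Hist1h2ap and Hist1h2br, and 95.7% of its 100-base stretches occur in the other unit. The peak over Hist1h2bq and Hist1h2ao held 65 fragments (50.2 to 82.8) and that over Hist1h2ap and Hist1h2br 52 (38.8 to 68.2), with every stretch of both peaks repeated. The peaks of Hist1h4m and Hist1h4n held 43 (31.1 to 57.9) and 55 (41.4 to 71.6). These values are shared between the units and not values of single genes. In the Hist2 cluster, Hist2h3c2 with Hist2h2aa2 is likewise an inverted copy of Hist2h2aa1 with Hist2h3c1.

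The summits were mostly in unique sequence. Within 100 bp of the summit, 26 of the 41 peaks held no 100-base stretch with another exact copy, and at 10 over 50% of the stretches had one. The median fold was 6.10 at the first 26 peaks, from 3.79 to 11.40, and 5.45 at the 10, from 3.31 to 9.03. The median background was 5.25 and 7.85 fragments. Peaks with repeated summits thus had more background in the median, and the part that repeated sequence plays in fold or background was not tested.

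The other genes of the histone pathway had higher folds in the median. Of 25 genes for the transcription and 3′ end processing of histone mRNA, 23 had a peak, or 92% against 64.3% of all gene starts. Their median fold was 10.3. The highest were Npat with 16.5, Lsm1, a subunit of the ring that starts histone mRNA decay, with 16.4, and Casp8ap2, which encodes the NPAT partner FLASH, with 15.7. The lowest were Srrt, which encodes ARS2, with 5.00, Nfyb with 6.67 and Cdk2 with 7.30. Nfyc and Zfp473 had none at the start of the gene record and peaks of 11.3 and 9.78 at another transcript start. Of 19 histone chaperone genes 18 had a peak, or 94.7% against the same 64.3%, with a median fold of 10.5. The highest were Ssrp1, a subunit of FACT, with 15, Asf1a with 14.2 and Chaf1b with 14.1. The lowest were Nasp with 7.68, Rbbp7 with 7.21 and Ipo4 with 3.70. Hjurp, the chaperone of the centromeric histone CENP-A, had none at any transcript start. Both lists had medians above the 8.43 of all starts with a peak, while the genes for the histones they handle had 6.10.

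The replication-independent histone genes, most of which are active outside S phase or in germ cells, lay between. Of 15 genes 10 had a peak, or 66.7%, near the 64.3% of all gene starts. Their median fold was 7.5 and their median background 3.07 fragments, near the 2.90 of all starts with a peak. The highest were H2afv with 13.1, Cenpa with 12.9 and H2afj with 9.18, and the lowest H2afy2 with 5.21, H1f0 with 3.71 and H2bfm with 3.57. H3f3b and H2afy had no peak at the start of the gene record and peaks of 7.51 and 5.15 at another transcript start. H1foo, Hils1 and H2afb1, known from oocytes or testis, had none.

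The label of the cells was checked by their markers. Of 8 stem cell markers, 7 had a peak at the gene start, or 87.5% against 64.3% of all gene starts. They had a median fold of 5.22, a median of 42 fragments and a median background of 7.62 fragments. The highest folds were those of Zfp42 with 15.9, Tdgf1 with 6.15 and Klf4 with 5.68, and the lowest those of Nanog with 4.12, Dppa5a with 3.37 and Pou5f1 with 2.83, so all but Zfp42 were below the general median of 8.43. Esrrb had a 5.84-fold peak at another transcript start. Of 6 fibroblast markers 5 had a peak, or 83.3% against the same 64.3%, and Col3a1 had none. The median fold was 5.45, from 2.68 at Prrx1 to 7.5 at Col1a2. The median was 15 for the fragments and 1.96 for the background. The folds of both lists overlapped and their medians were close, and the fibroblast markers had fewer fragments in the median. Fold alone did not separate the markers of the stem cells from those of the feeders, and the part of feeder cells in the values at histone genes was not tested.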

How the data were processed

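ATAC-seq libraries of EHMT2-dTAG mESCs treated with DMSO were sequenced by the authors as paired 100-base reads. After trimming with BBMap, alignment used STAR 2.7.10 and mm10. Duplicates (Picard 2.26.0) and ENCODE High Signal Regions were filtered out, cut positions were corrected for Tn5, and MACS2 2.2.6 was run on both clones merged. SAMtools 1.14 and bedtools 2.30.0 also stand in the submitters' processing notes. Reads with several best matches were written at 1 location chosen at random. The deposited fold enrichment is a ratio of fragments to local background with 1 added to each. For each summit the authors also deposited a −log10 p-value, a −log10 q-value and a score, of which the score was not used. The list holds 3 mitochondrial peaks and 2 on a sequence of another organism, which were left out. Library totals were not analysed here.

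Peaks were joined to GENCODE vM21 gene starts of the same build, and a gene took the peak of highest fold in its window. Fragment numbers were solved from fold and p-value, came out whole within 0.005 in −log10 p for 116778 peaks, and were tested on simulated data. Intervals are exact Poisson intervals and cover counting error only. Sequences came from the RefSeq GRCm38.p6 genome. Of the 67 genes, 62 matched an entry of the RefSeq promoter table and 61 of those had a start within 100 bp of the GENCODE start. Stem-loops were searched in the 150 bases after the stop codon, as 16 bases that begin with GG, pair over 6 bases (G–T pairs allowed) and have T as loop bases 1 and 3. No test was run, because 1 merged list has no replicates. Named are all genes without a peak, the highest and lowest of each class, all H1 genes and all genes outside Hist1, the 5 widest peaks, the head-to-head pairs of highest and lowest fold, and of other lists the genes without a peak and the 3 highest and 3 lowest. Further pairs, H2A, H3 and H4 genes, and genes on repeated sequence were named after their values were seen. H3f3c and Ars2 were listed but are not protein-coding names of the annotation. The members and lists were chosen with earlier results of these data known. Calculations used Python 3.11.15, NumPy 2.4.6, pandas 2.3.3, SciPy 1.17.1 and Matplotlib 3.10.9.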

Additional observations from a re-analysis of the deposited data

How the results depend on the processing

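Windows of 250 and 1000 bp, summits within 500 bp, a −log10 q-value of at least 10 and the starts of all transcripts gave 55, 55, 49, 43 and 55 histone genes with a peak, against 62.9%, 66.4%, 57.4%, 47.1% and 70.0% of all protein-coding genes. The median fold of the histone genes was 6.10, 6.25, 6.10, 6.4 and 6.10 in the same order, 5.75 with 1 value per distinct peak and 6.03 with the chromosome 13 genes alone. The median width was 990 bp per distinct peak and 1137 bp at the stricter q-value. The number of genes sharing a peak with another histone gene was 28 at 250 bp, 37 at 1000 bp and 26 at the stricter q-value, and starts at most 500 bp apart left 24 genes in pairs.

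Chosen after seeing the data were the window at the start codon, with 56 genes and a median fold of 6.03, leaving out the Hist2h genes, and peaks without a repeated summit, with median fold 6.33 and width 1231 bp over genes. Among the 28 alternative values, no count moved by over 1.5 times, and the others were shares or medians. Leaving out the Hist2h genes could not change the count, because none of them had a peak. Since both clones are merged in 1 list, no clone could be left out. No paired analysis was possible because no result comes from a test and the list has no columns for single clones. Peaks of few fragments, such as that of Hist1h2ba and Hist1h2aa, are the least precise, and absence of a peak means that none was called at this depth.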
